A study of Rattus norvegicus with 6 samples.

Results

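The caspases and the apoptosome scaffold Apaf1 form a family of 8 genes in the deposited expression tables. These were picked by symbol from the 18746 genes of the count table, with earlier results of these data known. The 8 genes are Casp1, Casp2, Casp4, Casp6, Casp8, Casp9, Casp12 and Apaf1. All 8 were listed, and 7 of them passed the filter on low counts that left 12420 genes for testing. The study compared PC12, a cell line grown out of a pheochromocytoma of the rat adrenal medulla, after transfection with an siRNA against NQO1 (siNQO1, 3 libraries) and after transfection with a nontargeting siRNA (siCtrl, 3 libraries). All cells came from this line and received their reagent by lipid transfection, and the sources name no engineered allele. The sample labels name the reagents differently, as an shRNA and a control plasmid, but split the samples in the same way. The paper describes the libraries of a group as biological replicates, but the sources do not say how their cultures were kept apart or when the sequenced cells were harvested, and the p-values cover only the spread among the 6 libraries.

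Caspases are cysteine proteases that cut their targets after aspartate and lie dormant in healthy cells as zymogens. In the mitochondrial route to apoptosis, cytochrome c released from mitochondria binds Apaf1, which assembles into a wheel-shaped apoptosome and activates caspase-9. Caspase-8 is activated below death receptors and caspase-2 on the PIDD1 and CRADD platform, and these initiators switch on executioners, among them caspase-6, that dismantle the cell. Caspase-1 and the rodent caspase-4, also known as caspase-11, belong to a separate inflammatory branch that cleaves gasdermin D and opens pores in the membrane, and caspase-12 is a rodent relative studied in stress of the endoplasmic reticulum. PC12 cells have long served as a model of death after withdrawal of trophic support.

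Reads counted in genes ran from 32789228 to 39467230 in the siNQO1 libraries and from 28873824 to 35235040 in the siCtrl libraries. Nqo1 itself was left at 22.6% of its siCtrl level in the FPKM table (77.9 ± 2.79 in siNQO1 and 344.8 ± 24.1 in siCtrl, SD, n = 3 each). Within siCtrl, replicate 2 stood apart. Across the tested genes its log2 CPM (counts scaled to library size) correlated at 0.986 and 0.989 with the other siCtrl libraries and at 0.989 to 0.990 with the siNQO1 libraries, so the family's fold changes are also given without it. The labelled cell type was poorly supported by its markers. The tyrosine hydroxylase Th, the dopamine hydroxylase Dbh and the granin Chga had at most 6, 11 and 3 reads in any library, and 2 of 11 listed chromaffin markers, Snap25 and Slc18a1, passed the filter. All 6 Schwann lineage markers passed it, and their summed level was 1532 to 1564 CPM in siNQO1 and 1678 to 1874 CPM in siCtrl. Among these 6, S100b and Erbb3 were lower (log2 fold changes -0.45 and -0.43, adjusted p = 0.00329 and 0.00583 from edgeR). Of the fibroblast, endothelial and epithelial markers, 3, 2 and 1 were tested and none passed. Their summed levels were 347.8 to 376.9, 5.68 to 5.98 and 43.9 to 48.0 CPM in siNQO1, against 379.9 to 387.6, 5.23 to 6.77 and 35.7 to 42.1 CPM in siCtrl, and for chromaffin markers 5.58 to 8.33 CPM in siNQO1 and 4.99 to 8.34 CPM in siCtrl. The part of these markers in the caspase results was not tested, and fewer cells of a type and less RNA per cell cannot be told apart in bulk samples.

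After NQO1 knockdown, Apaf1 fell and the scarce Casp1 rose, whereas Casp2, Casp8 and Casp9 differed by less than the spread between libraries. Casp4 and Casp12, which sit beside Casp1 on rat chromosome 8, lay above siCtrl in each siNQO1 library but narrowly missed the threshold. Casp6 was hardly detected. In the quasi-likelihood test of edgeR with adjustment over all genes tested, 1 of the 7 genes passed an adjusted p of 0.05 as higher and 1 as lower, where 5.27% of all genes tested were higher and 7.38% lower. With a fold over 2 as well, Casp1 passed and none of the other 6 did, against backgrounds of 0.242% higher and 0.193% lower. Both shares among 7 genes amount to a single gene, so the family as a whole was not set apart by its number of calls. Casp1 met the filter on low counts through its siNQO1 libraries, the group where it was higher. Its call is therefore given as a description. The siNQO1 and siCtrl values did not overlap in 4 of the 7 genes, with Casp1, Casp4 and Casp12 higher and Apaf1 lower, where 14.2% of all genes tested were higher without overlap and 19.4% lower. The median log2 fold change of the 7 genes was 0.04, beside 0.01 for all genes tested.

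**Figure D1:**
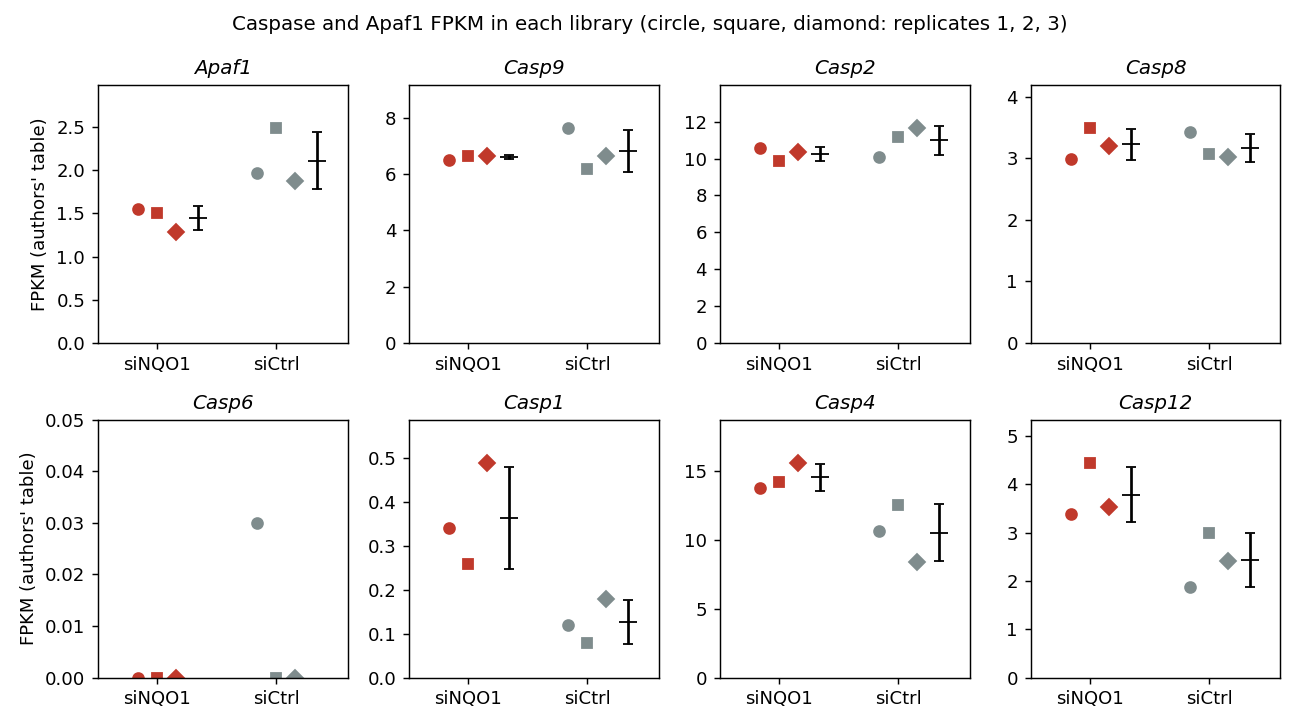
FPKM of the 8 genes in each library, with siNQO1 in red on the left and siCtrl in gray on the right of each panel, each axis starting at 0. Black bars give the mean and SD of 3 libraries (not drawn for Casp6). The siNQO1 libraries sit at 1.29 to 1.55 FPKM for Apaf1, all below the siCtrl libraries, and at 13.8 to 15.62 FPKM for Casp4, all above them.

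Apaf1, the scaffold of the apoptosome (ENSRNOG00000008022, chromosome 7), had 1.55, 1.50 and 1.29 FPKM in siNQO1 replicates 1, 2 and 3, against 1.97, 2.49 and 1.87 FPKM in siCtrl replicates 1, 2 and 3. The groups did not overlap, and siCtrl replicate 2 was the highest library. These values rested on 364, 348 and 360 reads in siNQO1 and on 399, 618 and 462 reads in siCtrl. The log2 fold change was -0.53 (standard error 0.13, 95% interval -0.83 to -0.23, adjusted p = 0.0351 from edgeR), which leaves 0.692 of the siCtrl level. Apaf1 thus moved by less than a factor of 2, and the exact two-sided permutation test on FPKM gave p = 0.10, the smallest that 3 libraries against 3 allow. Without siCtrl replicate 2 the log2 fold change was -0.40 and the call held (adjusted p = 0.0124 from edgeR). Without any 1 of the other 5 libraries it did not pass, with adjusted p from 0.0559 without siCtrl replicate 3 to 0.145 without siNQO1 replicate 3.

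Casp9, the initiator that the apoptosome activates (ENSRNOG00000012944, chromosome 5), had 6.50, 6.65 and 6.63 FPKM in siNQO1, against 7.63, 6.16 and 6.64 FPKM in siCtrl. The siNQO1 libraries lay within the range of siCtrl and close to each other. The log2 fold change was -0.03 (95% interval -0.24 to 0.18, adjusted p = 0.852 from edgeR), so a rise or fall beyond these bounds was not seen. The sign was not stable, since the value was 0.035 without siCtrl replicate 1 and -0.10 without siCtrl replicate 2. The ratio of Casp9 to Apaf1 FPKM within a library was 4.19, 4.43 and 5.14 in siNQO1, against 3.87, 2.47 and 3.55 in siCtrl. Every siNQO1 library had a higher ratio than every siCtrl library. This ratio was formed after the values were seen and was not tested.

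The promoter of Apaf1 is shown because this was the family member that fell. RefSeq places the 300 bases from 250 before to 50 after its start at chr7:27466723-27467022, minus strand, in the GRCr8 assembly, which is a later assembly than the one the reads were aligned to. The capitals mark GGGCGG, the GC box bound by Sp1 factors, which is present in 34.9% of 27457 promoter windows of the same length when both strands are searched.
Apaf1: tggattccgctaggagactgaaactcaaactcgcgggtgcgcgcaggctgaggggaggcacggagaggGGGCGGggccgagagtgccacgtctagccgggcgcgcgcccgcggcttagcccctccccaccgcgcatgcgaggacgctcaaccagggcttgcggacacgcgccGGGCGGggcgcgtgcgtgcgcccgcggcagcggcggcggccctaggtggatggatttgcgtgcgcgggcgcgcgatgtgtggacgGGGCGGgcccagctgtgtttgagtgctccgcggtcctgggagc
The window held 3 GC boxes, with first bases at -182, -78 and 8 from the start, and 43 CpG dinucleotides at a GC content of 73.7%. By CpG number it ranked at or above 98.0% of the promoter windows, whose median was 7. It held no match to TTTNNCGC, a core of sites for E2F factors, which 5.19% of the windows contain on either strand. Of the family windows only that of Casp2 held one, at -227 to -220, and Casp2 had a log2 fold change of -0.09. E2f1, an E2F factor known to drive Apaf1 in human and mouse cells, was at 12.7 FPKM in siNQO1 and 16.8 FPKM in siCtrl (log2 fold change -0.39, adjusted p = 0.00296 from edgeR). The presence or absence of a match describes letters only, and the part of E2f1 in the Apaf1 values was not tested.

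Casp2, an initiator that responds to damaged DNA and surplus centrosomes (ENSRNOG00000016707, chromosome 4), had 10.59, 9.85 and 10.33 FPKM in siNQO1, against 10.11, 11.17 and 11.66 FPKM in siCtrl. The groups overlapped, with siCtrl replicate 1 inside the range of siNQO1. With 1174 to 1658 reads per library it was the most deeply counted of the 8 genes. The log2 fold change was -0.09 (95% interval -0.25 to 0.08, adjusted p = 0.483 from edgeR), and it stayed negative without passing in all 18 alternative settings (-0.08 without siCtrl replicate 2). Casp8, the initiator of the death receptor route (ENSRNOG00000012331, chromosome 9), had 2.99, 3.49 and 3.19 FPKM in siNQO1, against 3.42, 3.06 and 3.01 FPKM in siCtrl. Again the groups overlapped. Its log2 fold change was 0.04 (95% interval -0.21 to 0.30, adjusted p = 0.843 from edgeR), and it was -0.03 without siNQO1 replicate 2 and 0.01 without siCtrl replicate 2.

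Casp6, an executioner that cuts nuclear lamins (ENSRNOG00000009508, chromosome 2), was the member with almost no signal. It had 3 reads in siCtrl replicate 1 and 0 reads in the other 5 libraries, and it did not enter the test. A count of 0 in the 105275675 siNQO1 reads allows up to 0.0285 CPM by the limit of 3 counts (95% exact Poisson interval 0 to 0.0350), and the 3 reads in siCtrl amount to 0.0303 CPM (95% exact Poisson interval 0.00625 to 0.0886). Both groups were thus at the limit of detection, and no difference between them could be seen at this depth. Intervals and limits of this kind cover counting error only.

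Casp1, the protease that matures interleukin-1 beta (ENSRNOG00000007372, chromosome 8), had 20, 15 and 34 reads in siNQO1, against 6, 5 and 11 reads in siCtrl. Every siNQO1 library was above every siCtrl library, at a low level throughout. In FPKM the values were 0.34, 0.26 and 0.49 in siNQO1 and 0.12, 0.08 and 0.18 in siCtrl. The summed 69 and 22 reads correspond to 0.655 CPM in siNQO1 and 0.222 CPM in siCtrl, a ratio of 2.95 with a 95% interval from counting error of 1.80 to 5.01. The fitted log2 fold change was 1.53 (standard error 0.42, 95% interval 0.57 to 2.49, adjusted p = 0.0478 from edgeR), a fold of 2.90. Casp1 therefore passed narrowly, and its interval was the widest of the 7. Most siCtrl libraries held too few of its reads for the filter on low counts, so Casp1 entered the test through siNQO1. Without siCtrl replicate 2 it missed the threshold at a log2 fold change of 1.28 (adjusted p = 0.0530 from edgeR), and it also missed it without any 1 of the other 5 libraries (highest adjusted p = 0.179). On the log2(FPKM + 1) scale, which compresses low values, the difference was 0.27.

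Casp4, the rodent sensor of cytosolic lipopolysaccharide (ENSRNOG00000033697, chromosome 8), was the most abundant member in siNQO1, with 13.80, 14.21 and 15.62 FPKM, against 10.63, 12.58 and 8.40 FPKM in siCtrl. The groups did not overlap, and siCtrl replicate 2 was the control nearest to siNQO1. Read numbers were 651, 661 and 871 in siNQO1, against 431, 625 and 417 in siCtrl. The log2 fold change was 0.48 (standard error 0.14, 95% interval 0.17 to 0.79, adjusted p = 0.0519 from edgeR), just short of the threshold. Without siCtrl replicate 2 it was 0.63 and passed (adjusted p = 0.000648 from edgeR). Without any 1 of the other libraries it did not pass, with the highest adjusted p of 0.209 without siNQO1 replicate 3.

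Casp12 (ENSRNOG00000033434, chromosome 8) had 3.38, 4.45 and 3.54 FPKM in siNQO1, against 1.88, 2.99 and 2.42 FPKM in siCtrl. These groups did not overlap either, and siCtrl replicate 2 was again the highest control. The gene was counted at 178, 231 and 220 reads in siNQO1 and at 85, 166 and 134 reads in siCtrl. Its log2 fold change was 0.65 (standard error 0.19, 95% interval 0.22 to 1.08, adjusted p = 0.0574 from edgeR). Like Casp4 it passed without siCtrl replicate 2, at 0.81 (adjusted p = 0.00414 from edgeR), and not without any 1 of the other libraries (highest adjusted p = 0.244, without siNQO1 replicate 2). Summed over Casp1, Casp4 and Casp12, the level was 17.5, 18.9 and 19.7 FPKM in siNQO1, against 12.6, 15.7 and 11 FPKM in siCtrl, while the sum of Casp2, Casp8 and Casp9 was 20.1, 20.0 and 20.2 FPKM in siNQO1, against 21.2, 20.4 and 21.3 FPKM in siCtrl. The sums follow from the values above and were not tested.

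**Figure D2:**
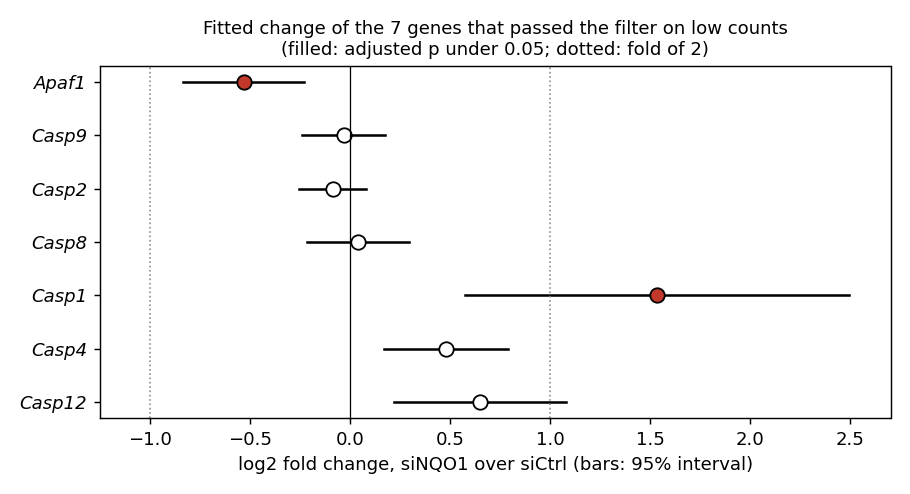
Fitted log2 fold change, siNQO1 over siCtrl, of the 7 genes that passed the filter on low counts, with bars for the 95% interval from edgeR. The bars of Apaf1, Casp1, Casp4 and Casp12 do not reach 0, and the filled points, Apaf1 at -0.53 and Casp1 at 1.53, also passed an adjusted p of 0.05.

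**Figure D3:**
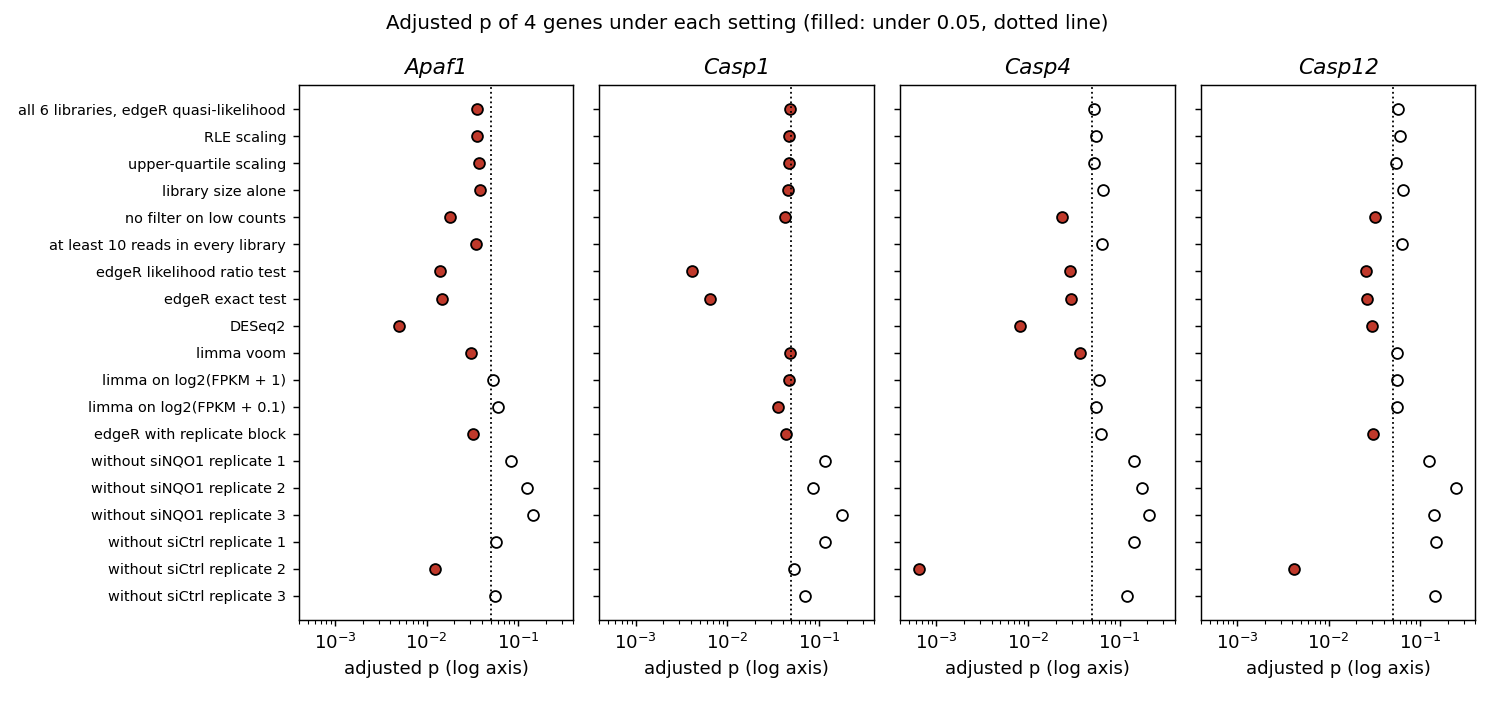
Adjusted p, on a log axis, of Apaf1, Casp1, Casp4 and Casp12 under each setting, with the threshold of 0.05 as a dotted line and filled points below it. No point is drawn where the gene was not tested or received no adjusted p. Casp4 and Casp12 reach their lowest values, 0.000648 and 0.00414, without siCtrl replicate 2, and Apaf1 passes there and misses the threshold without any other library.

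The 3 inflammatory genes follow each other among the tested genes along rat chromosome 8 in RefSeq, in the order Casp1, Casp4 and Casp12. They are paralogs that arose by tandem duplication, so reads that match more than 1 of them would be lost or assigned uncertainly by counting uniquely mapped reads. Tested genes on either side were taken for comparison after the values had been seen. On one side Aasdhppt, Kbtbd3 and Msantd4 had log2 fold changes of 0.25, 0.33 and 0.18, of which Aasdhppt passed (adjusted p = 0.0371 from edgeR). On the other side Dync2h1, Dcun1d5 and Mmp3 had 0.54, -0.21 and -0.21, and none passed. The values of the 3 caspases, 1.53, 0.48 and 0.65, therefore had neighbors in both directions.

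The promoters of Casp1 and Casp12 are shown because these genes had the largest positive fold changes of the family and because both windows carry the same short motif. The capitals mark a match to a pair of GAAA stretches with any 2 bases between them, the core recognized by interferon regulatory factors, which reads TTTC in this orientation. RefSeq gives the windows at chr8:10872580-10872879 for Casp1 and chr8:10926938-10927237 for Casp12, both on the plus strand of GRCr8.
Casp1: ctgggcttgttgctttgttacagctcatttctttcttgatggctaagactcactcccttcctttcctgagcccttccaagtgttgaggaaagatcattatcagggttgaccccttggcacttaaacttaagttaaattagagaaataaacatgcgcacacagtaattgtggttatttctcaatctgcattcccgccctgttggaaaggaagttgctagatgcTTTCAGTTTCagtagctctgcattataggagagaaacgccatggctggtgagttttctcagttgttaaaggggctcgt
Casp12: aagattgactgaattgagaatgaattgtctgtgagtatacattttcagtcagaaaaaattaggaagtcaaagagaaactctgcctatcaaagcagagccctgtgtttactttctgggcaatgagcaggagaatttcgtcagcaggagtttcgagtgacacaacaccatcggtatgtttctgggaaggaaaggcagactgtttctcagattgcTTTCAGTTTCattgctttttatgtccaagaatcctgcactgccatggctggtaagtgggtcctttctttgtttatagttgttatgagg
The match lay at -28 to -19 from the start in Casp1 and at -38 to -29 in Casp12, and it sits inside a run of 14 identical bases, tgctttcagtttca, the longest that both windows share. Such a match is present in 3.77% of the 27457 promoter windows on either strand, and in none of the other 4 family windows, those of Casp2, Casp6, Casp9 and Apaf1. The table held no window for Casp4 or Casp8. Casp1 and Casp12 had 4 and 3 CpG dinucleotides in 300 bases, beside 27 in Casp2, 24 in Casp9, 16 in Casp6 and 43 in Apaf1. Each of the windows of Casp2, Casp6, Casp9 and Apaf1 held at least 1 GC box in the sense orientation, Casp1 held 1 on the opposite strand and Casp12 none. A match describes letters and not a bound site.

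**Figure D4:**
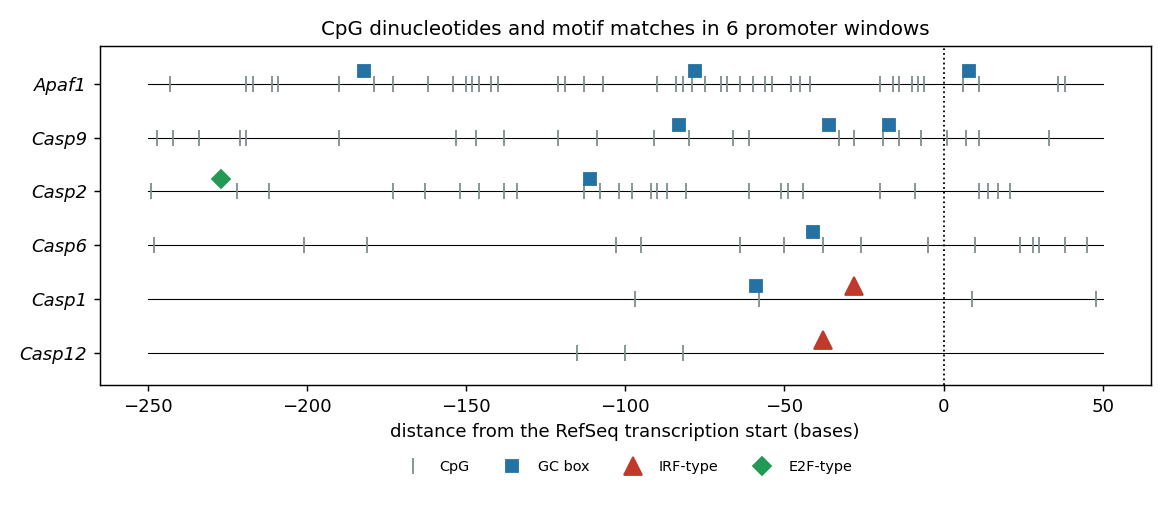
Position of CpG dinucleotides (gray ticks) and motif matches on either strand in the RefSeq promoter windows of 6 family members, by distance in bases from the transcription start. The red triangles mark the interferon regulatory factor type motif, at -28 in Casp1 and -38 in Casp12, and the blue squares mark GC boxes, of which Apaf1 and Casp9 hold 3 each.

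Ranked by FPKM, which is per length of transcript, the order in siNQO1 was Casp4, Casp2, Casp9, Casp12, Casp8, Apaf1, Casp1 and Casp6, with means of 14.5, 10.3, 6.59, 3.79, 3.22, 1.45, 0.363 and 0 FPKM. Of these neighbors, Casp12 and Casp8 overlapped in their range over libraries and the other pairs did not. In siCtrl, Casp2 at 10.98 ± 0.792 FPKM and Casp4 at 10.54 ± 2.09 FPKM (SD, n = 3 each) overlapped at the top, and Casp12 at 2.43 ± 0.555 and Apaf1 at 2.11 ± 0.333 FPKM (SD, n = 3 each) overlapped further down. The FPKM of Casp4 was 1.30, 1.44 and 1.51 times that of Casp2 in siNQO1, against 1.05, 1.13 and 0.720 in siCtrl. Likewise Casp12 stood at 1.13, 1.28 and 1.11 times the level of Casp8 in siNQO1, against 0.550, 0.977 and 0.804 in siCtrl. The leading transcript of the 8 was therefore Casp4 in each siNQO1 library and in 2 of 3 siCtrl libraries, the exception being siCtrl replicate 3. These ratios are descriptions and were not tested.

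Genes that act with the caspases moved in both directions. Over 7 lists of such genes, 91 were tested, 7 of which (7.69%) were higher and 9 (9.89%) lower, beside the 5.27% and 7.38% of all genes tested. The lists were chosen with earlier results of these data known, and their counts are descriptions. Of the 16 called genes, Tradd and E2f1 passed in all 18 alternative settings and the other 14 missed the threshold in at least 1. Without siCtrl replicate 2 all 16 kept their call and direction, and the lists then held 16 higher and 15 lower genes.

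Among 12 apoptosome partners and inhibitors of apoptosis, none was higher, 1 was lower and 11 missed the threshold, with a median log2 fold change of -0.01. The lower gene was Birc5, which encodes survivin, at 76.8 FPKM in siNQO1 and 94.6 FPKM in siCtrl (log2 fold change -0.29, adjusted p = 0.0224 from edgeR). Diablo, the mitochondrial antagonist of these inhibitors, was at 214.5 and 225.4 FPKM in siNQO1 and siCtrl (log2 fold change -0.06). Pea15, an adaptor with a death effector domain, was at 208.1 and 209.5 FPKM in siNQO1 and siCtrl (log2 fold change 0.00). Cytochrome c itself, Cycs, was at -0.04 on the log2 scale and has processed copies in the genome that may share its reads.

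Among 12 genes of the inflammasome and pyroptosis, on the branch of Casp1 and Casp4, 2 were higher, none was lower and 10 did not pass, with a median of 0.11. Pycard, which encodes the adaptor ASC that links sensors to caspase-1, was at 7.55 FPKM in siNQO1 and 5.51 FPKM in siCtrl (log2 fold change 0.47, adjusted p = 0.0420 from edgeR). Txnip, a thioredoxin inhibitor that binds NLRP3, was at 43.9 FPKM in siNQO1 and 33.1 FPKM in siCtrl (log2 fold change 0.42, adjusted p = 0.0119 from edgeR). Their call was lost without at least 1 library, with highest adjusted p of 0.149 and 0.0588 from edgeR. Ninj1, which ruptures the membrane of dying cells, was at 177.7 and 180.2 FPKM in siNQO1 and siCtrl (log2 fold change -0.01). The caspase-1 substrates Gsdmd and Il18 had log2 fold changes of 0.08 and -0.02 and did not pass. Of 12 listed myeloid markers, from cells rich in these caspases, 3 were tested and none passed, and the summed level was 42.9 to 46.7 CPM in siNQO1 and 46.9 to 48.4 CPM in siCtrl, nearly all of it from Cd14. The defining markers Aif1, C1qb and C1qc were at 0 in all siNQO1 libraries, with 1, 4 and 1 reads in a single siCtrl library each. Itgam had 5, 1 and 1 reads, Tyrobp 1, 0 and 2 reads and C1qa 0, 1 and 7 reads in siNQO1, against 0 in all siCtrl libraries for these 3 genes, the same direction as Casp1. Fcer1g was seen in every library, with 5, 9 and 19 reads in siNQO1 and 6, 14 and 10 reads in siCtrl. Csf1r went the other way, with 0, 4 and 3 reads in siNQO1 and 3, 6 and 6 reads in siCtrl. For Laptm5 the reads were 0, 4 and 5 in siNQO1 and 8, 1 and 1 in siCtrl. The tested Cd14, Lyz2 and Cd68 had log2 fold changes of -0.09, -0.02 and 0.03. The myeloid list thus had no common direction. The part of such cells in the result was not tested.

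Among 12 genes of the caspase-2 and caspase-8 platforms, 1 was higher, 1 lower and 10 did not pass, with a median of 0.10. The adaptor Tradd was at 19.1 FPKM in siNQO1 and 11.4 FPKM in siCtrl (log2 fold change 0.76, adjusted p = 0.000748 from edgeR). Fadd, the adaptor that recruits caspase-8, was at 2.35 FPKM in siNQO1 and 3.82 FPKM in siCtrl (log2 fold change -0.69, adjusted p = 0.0105 from edgeR). The receptor Tnfrsf1a and the ligase Traf2 had log2 fold changes of 0.10 and 0.11 and did not pass. Adaptors above caspase-8 therefore differed in opposite directions around a caspase-8 transcript whose groups overlapped.

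Among 18 caspase substrates and nucleases of dying cells, 14 missed the threshold, 3 were higher and 1 was lower, with a median of 0.16. All but 1 of the 18 had a positive log2 fold change, beside 6422 of all 12420 genes tested. Vim, which encodes the intermediate filament vimentin, was at 3186 FPKM in siNQO1 and 2544 FPKM in siCtrl (log2 fold change 0.34, adjusted p = 0.0107 from edgeR). Gas2, an actin-associated substrate, and Pak2, a kinase that caspases activate, had log2 fold changes of 1.06 and 0.27 (adjusted p = 0.0207 and 0.0248 from edgeR). Lmnb1, the nuclear lamin B1, was at 18.5 FPKM in siNQO1 and 22.3 FPKM in siCtrl (log2 fold change -0.26, adjusted p = 0.0369 from edgeR). Lmna, the lamin cut by caspase-6, was at 522.8 and 512.5 FPKM in siNQO1 and siCtrl and did not pass.

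Among 11 genes of endoplasmic reticulum stress linked to caspase-12, 1 was higher, 2 were lower and 8 did not pass, with a median of -0.04. The chaperone Hspa5 was at 231.8 FPKM in siNQO1 and 205.8 FPKM in siCtrl (log2 fold change 0.19, adjusted p = 0.0466 from edgeR). The sensor kinase Ern1 and the protease Capn1 had log2 fold changes of -0.30 and -0.26 (adjusted p = 0.0436 and 0.0267 from edgeR). For Atf4, a stress transcription factor that did not pass, the value was -0.14. Among 9 transcription factors known to drive caspase or Apaf1 genes, none was higher, 2 were lower and 7 missed the threshold, with a median of -0.07. E2f1 was among the lower genes, with the values given beside the Apaf1 promoter. Irf1, a driver of Casp1 in other cells, was at -0.01 on the log2 scale.

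Interferon is known to raise caspase-1 and caspase-11 in mouse cells, so the interferon response is given beside the inflammatory genes. Of 19 such genes, none was higher, 3 were lower and 16 missed the threshold, with a median log2 fold change of 0.07. The RNA sensor Ddx58 and the GTPase Gbp2 were among the lower genes (log2 fold changes -0.53 and -0.28, adjusted p = 0.0217 and 0.0233 from edgeR). The immunoproteasome subunits Psmb8 and Psmb9, the most abundant of the list, had log2 fold changes of 0.02 and 0.07. The summed level of the list was 323.3 to 344.9 CPM in siNQO1 and 343.6 to 349.9 CPM in siCtrl. Of the 19 genes, 11 had a positive log2 fold change, the sign of the inflammatory caspases, and the others a negative one. Over all 12420 genes tested, 6422 were positive. The part of interferon in the caspase values was not tested.

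**Figure D5:**
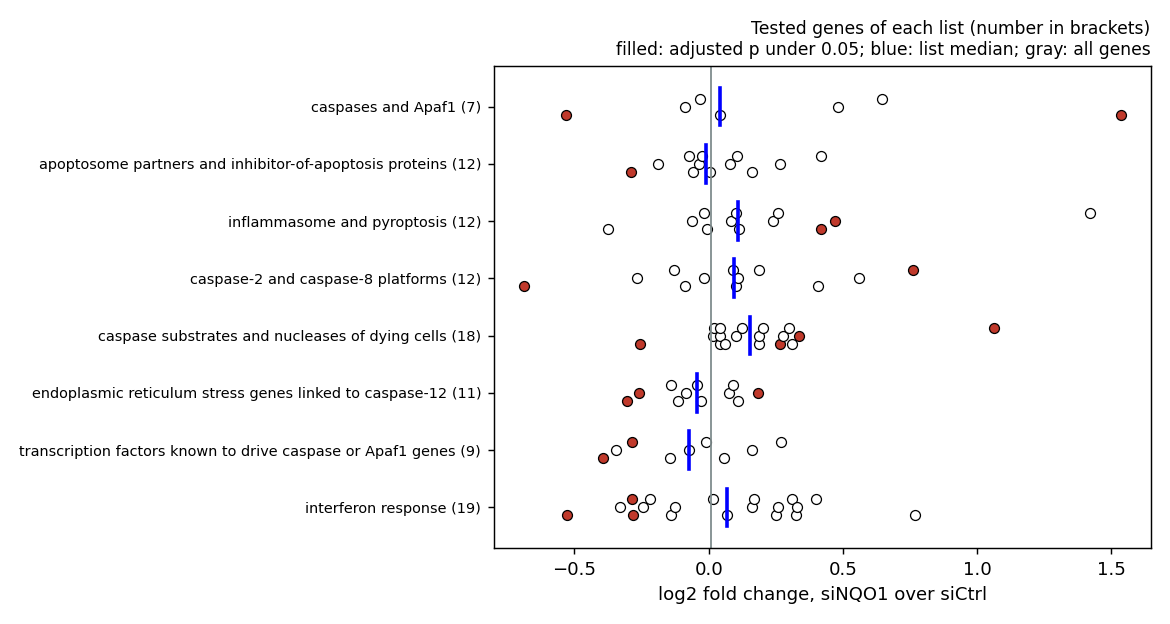
Log2 fold change, siNQO1 over siCtrl, of each tested gene in the family and in the 7 related lists, 1 point per gene, with the number tested in brackets. Filled points passed an adjusted p of 0.05, blue bars mark list medians and the gray line the median of all genes tested. The substrates list sits furthest to the right by its median, 0.16.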

How the data were processed

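Polyadenylated RNA of 3 siNQO1 and 3 siCtrl samples was sequenced with stranded libraries. Per the methods of the paper, the authors trimmed the reads, aligned them to the RGSC6 genome with TopHat2 and counted uniquely mapped reads per gene. The deposited count table holds whole numbers without scaling. A table of FPKM, made by the authors, is rounded to 2 decimals, which makes low genes coarse. Tools named in the processing notes of the submitters are TopHat2, edgeR and bcl2fastq. No source used here names the counting tool or its strand setting, and genes that overlap may share reads.

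Counts were analyzed in R 4.3.3 with edgeR 4.0.16 (filterByExpr, TMM scaling, then the quasi-likelihood fit with group as its sole term). The p-values of all 12420 genes were adjusted by Benjamini-Hochberg. A gene was called at an adjusted p under 0.05, and the fold of 2 used by the authors is given beside it. Standard errors and intervals come from the quasi-likelihood F statistic. The script was tested on simulated data. Alternatives were RLE, upper-quartile and no scaling, 2 other filters, the likelihood ratio and exact tests, DESeq2 1.42.0, limma 3.58.1 with voom and on log2 FPKM, a replicate block, and each library left out. Named genes are the 8 members, of each related list the called genes and the 2 with the highest mean FPKM, and those described as chosen later, as were Cycs, Gsdmd and Il18. The members and lists were chosen with earlier results of these data known. Promoter windows come from RefSeq (GRCr8), matched by symbol for 6 of 8 members. Some list genes are not reported here, and splicing was not analyzed here.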

Additional observations from a re-analysis of the deposited data

How the results depend on the processing

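The number of family genes called as higher was 3 with no filter on low counts and with the likelihood ratio and exact tests of edgeR, 2 with DESeq2, limma voom and the replicate block, and 0 with at least 10 reads in every library, where Casp1 was not tested. It was 1 under the other settings that kept every library. DESeq2 gave Casp1 no adjusted p. Apaf1, the gene called as lower, missed the threshold with limma on log2(FPKM + 1) and log2(FPKM + 0.1), at -0.34 and -0.51, so that 0 were lower. Casp4 passed with no filter, the likelihood ratio test, the exact test, DESeq2 and voom (0.49, 0.48, 0.48, 0.48 and 0.50). Casp12 passed with the first 4 of these (0.65, 0.65, 0.65 and 0.64) and with the replicate block (0.66). The replicate numbers were not taken as pairs, since deviations of siNQO1 and siCtrl libraries with a shared number correlated at -0.04, 0.16 and 0.06 and not every library correlated best with its own number. The block gave 610 genes higher and 740 lower over all genes and changed no other call in the family. The cause of these differences was not tested.

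With 1 library left out, the family count ran from 0 to 2 higher and from 0 to 1 lower, and the related lists from 1 to 16 higher and from 2 to 15 lower. Over all genes these counts ran from 167 to 2164 higher and from 351 to 2036 lower, each highest without siCtrl replicate 2. Log2 fold changes ran from 1.25 to 1.90 in Casp1, -0.61 to -0.40 in Apaf1, 0.35 to 0.63 in Casp4, 0.48 to 0.81 in Casp12, -0.03 to 0.077 in Casp8, -0.10 to 0.035 in Casp9 and -0.16 to -0.03 in Casp2. Depth limits Casp1 and Casp6 most.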

Other observations

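The genes whose log2 CPM followed Apaf1 most closely over the 6 libraries, among 8610 tested genes with an average log2 CPM over 3, were Coq10b, a coenzyme Q binding protein, Mad2l1, a spindle checkpoint protein, and Pptc7, a mitochondrial phosphatase. Their Pearson r with Apaf1 was 0.998, 0.994 and 0.993. For Casp1 they were Bcat2, a mitochondrial aminotransferase, Thap3 and RT1-CE5, a class I histocompatibility gene, with r of 0.993, 0.991 and 0.991. The libraries form 2 groups, so these values describe likeness only. Coq10b and Bcat2 passed the test between siNQO1 and siCtrl (log2 fold changes -0.42 and 0.26, adjusted p = 0.0243 and 0.0350 from edgeR) and the other 4 genes did not.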
